A study of Mus musculus with 4 samples.

Results

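The genes described are the DNA topoisomerases of the mouse and the tyrosyl-DNA phosphodiesterases (TDP) that clear them from DNA. They were taken by symbol from the gene entries of the count table, and 8 of 47937 gene entries were members: Top1, Top1mt, Top2a, Top2b, Top3a, Top3b, Tdp1 and Tdp2. Total RNA was sequenced from mouse embryonic fibroblasts (MEF cells), a culture of connective tissue cells, with 2 libraries of untreated cells and 2 of cells exposed to 50 µM genistein for 24 h, all grown in DMEM with serum. The labels name wild-type cells for the untreated libraries and give only the treatment for the genistein libraries. The study's methods give DMSO, the solvent of genistein, to untreated cells in other assays, and the labels do not say whether these cells received it or whether the libraries of a group came from separate cultures, so the tests measure the spread between these libraries, which may be technical. The question behind the comparison is what genistein, a plant isoflavone known as a topoisomerase II poison, does to transcription in these cells. Here the transcripts are those of topoisomerases of all types and of the TDP enzymes.

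Topoisomerases cut DNA, let strands pass or rotate, and seal the cut again, which removes the supercoils and tangles left by transcription and replication. During the cut a tyrosine of the enzyme is joined to the DNA end. Type I enzymes cut 1 strand and type II enzymes cut both. A poison holds the enzyme on the cut DNA, and the trapped protein can be digested and its last residues removed. TDP1 does this mainly for topoisomerase I, at the 3′ end of the break, and TDP2 mainly for topoisomerase II, at the 5′ end.

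The promoters of the 3 nuclear topoisomerases with the most transcripts are shown, and that of Top2a is dense in motifs known from cell cycle genes. The part of these motifs in the response of the genes was not tested. RefSeq promoter sequence of GRCm38.p6 was matched for 5 of the 8 members. Each line gives the bases of that window that lie before the gene start, 5′ to 3′ on the strand of the gene. Capitals mark the motifs searched on both strands, which are the CCAAT box (CCAAT), the cell cycle homology region or CHR (TTTGAA), the GC box (GGGCGG) and the E-box (CACGTG). No marked matches overlapped.
Top2a, chr11:99024190-99024439, - strand: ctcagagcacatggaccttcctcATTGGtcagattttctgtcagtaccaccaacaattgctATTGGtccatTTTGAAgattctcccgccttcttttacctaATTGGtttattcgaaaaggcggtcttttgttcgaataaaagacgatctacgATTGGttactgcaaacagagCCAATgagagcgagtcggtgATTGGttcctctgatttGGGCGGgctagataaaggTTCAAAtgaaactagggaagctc
Top2b, chr14:16364956-16365178, + strand: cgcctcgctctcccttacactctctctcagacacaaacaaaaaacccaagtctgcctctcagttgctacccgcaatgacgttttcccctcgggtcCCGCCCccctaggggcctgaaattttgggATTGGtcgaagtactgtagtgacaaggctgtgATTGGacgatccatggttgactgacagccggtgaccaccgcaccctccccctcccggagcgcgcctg
Top1, chr2:160645647-160645887, + strand: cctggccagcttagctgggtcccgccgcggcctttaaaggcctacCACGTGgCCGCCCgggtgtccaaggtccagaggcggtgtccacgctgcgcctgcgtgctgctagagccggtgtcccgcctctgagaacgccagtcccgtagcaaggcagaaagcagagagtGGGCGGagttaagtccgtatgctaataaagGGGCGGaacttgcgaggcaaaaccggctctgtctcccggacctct

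The Top2a promoter held 6 CCAAT boxes and 2 CHR motifs. Of 32817 mouse promoter windows of 250 bases, 33.83% held at least 1 CCAAT box, and 19 windows, or 0.0579%, held 6 or more. At least 1 CHR motif was found in 15.98% of the windows and at least 2 in 1.81%. The Top2b promoter held 2 CCAAT boxes and no CHR motif, and at least 2 CCAAT boxes were found in 10.1% of the windows. The Top1 promoter held neither of these. It had 3 GC boxes and 1 E-box, while the Top2a and Top2b promoters had 1 GC box each. At least 1 GC box was found in 32.72% of the windows and at least 3 in 8.47%, and an E-box in 6.021%. Among the other members with a promoter window, Tdp1 had 1 CHR motif and 1 GC box, and Top3b had 1 CCAAT box. A match of letters is a description of the sequence and shows no binding.

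Total counts over genes and repeats lay between 28591958 and 31464284 per library, and the 8 members together held 45533 to 53720 of them. Each member passed the filter on low counts. Collagen, fibronectin and vimentin transcripts, which mark fibroblasts, were abundant. Sums are given in CPM, the counts scaled to a common library size. The 10 fibroblast markers summed to 14465 to 14857 CPM in untreated and 13786 to 14094 CPM in genistein libraries. Thy1, 1 of them, had 0 counts in each library. Epcam and Krt5 of epithelium, Cd3e of T cells and Myod1 and Ckm of muscle were also at 0 in each library. The 4 markers each of epithelium, blood cells, endothelium and muscle summed to at most 24.0 CPM. The epithelial sum, nearly all of it from Krt14, was 22.5 to 24.0 CPM in untreated and 3.62 to 3.95 CPM in genistein libraries. The muscle sum, nearly all of it from Des, was 0.990 to 1.23 CPM in untreated and 8.83 to 9.49 CPM in exposed libraries. Des had 37 and 28 raw counts without genistein, and 302 and 261 with it. Blood cell and endothelial sums, mostly from Cd68 and Kdr, were 2.26 to 2.84 and 0.834 to 1.03 CPM in untreated and 7.34 to 7.55 and 2.85 to 3.25 CPM in exposed libraries. The part of these shifts in the results on the members was not tested. In bulk RNA, fewer cells of a kind and less RNA per cell cannot be told apart.

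With genistein, transcripts of 6 of the 8 members fell, those of 1 rose and those of 1 did not pass the test. The genes that fell were Tdp1, Top1mt, Top1, Top3a, Top2b and Tdp2, and the gene that rose was Top3b. Top2a, the most abundant of them, did not pass. Among all 16240 tested genes, 38.2% fell and 33.5% rose at an adjusted p-value under 0.05, so that 71.7% passed in either direction, and a call on 7 of 8 members has to be read against that. The median log2 fold change was -0.42 over the 8 members, -0.03 over all genes and -0.18 over the 5652 genes with more than 1000 mean normalised read counts, which include Top1, Top2a, Top2b and Top3b. The study's thresholds add a mean count above 100 and a change of more than 1 log2 unit in either direction. They were passed by 8.08% of genes and by 0 of the 8 members.

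**Figure D1:**
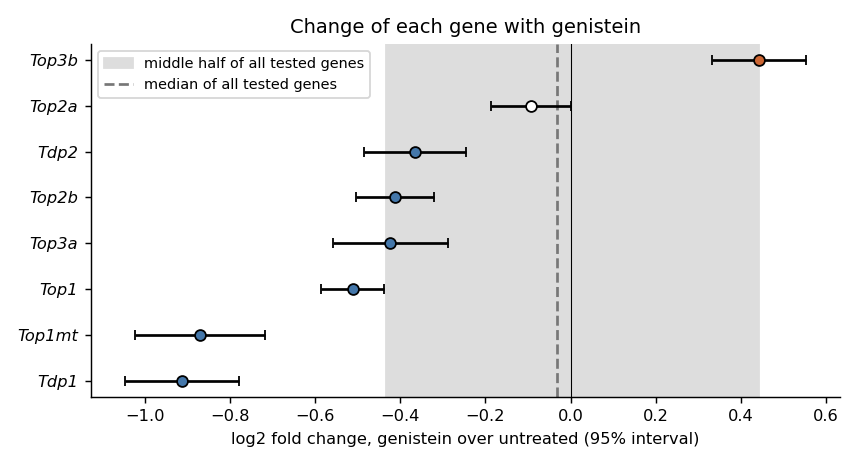
Log2 fold change of each member, genistein over untreated, with its 95% interval (edgeR, 2 libraries per group). Filled points passed an adjusted p-value of 0.05, the grey band runs from the lower to the upper quartile of all 16240 tested genes and the dashed line is their median. Tdp1 and Top1mt lie furthest to the left, Top2a is open with an interval that reaches 0.000438, and Top3b is the member to the right of 0.

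The type II enzymes are the ones that genistein poisons. TOP2A works in replicating and dividing cells, where it untangles sister chromatids, and TOP2B is also made in resting cells, where it acts at promoters and enhancers. Normalised read counts, which put the 4 libraries at a common effective size, were 31487 and 31093 for Top2a (chromosome 11, 98992943 to 99024189, 9013 bases of exon) without genistein, and 29266 and 29379 with it. Both genistein libraries lay below both untreated libraries, by little, at a log2 fold change of -0.09 ± 0.04 (SE, here and for the fold changes that follow) and a 95% interval from -0.19 to 0.000438 (adjusted p = 0.069 by the edgeR quasi-likelihood test, Benjamini-Hochberg corrected). Of all genes, 44.6% had both genistein libraries below both untreated ones, the share to set beside each fall without overlap reported below. The call depended on the method, since Top2a passed with DESeq2 at -0.12 (adjusted p = 0.00034) and without a filter on low counts at -0.12 (adjusted p = 0.021, edgeR). Gm23451, a small nucleolar RNA gene within the exons of Top2a on the same strand, held 22 to 27 raw counts.

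Top2b (chromosome 14, 16365179 to 16435462, 14613 bases of exon) fell from 11307 and 11056 normalised read counts to 8286 and 8523. Its groups did not overlap, and the log2 fold change came to -0.41 ± 0.04, a fall to 0.752 of the untreated level (adjusted p = 2.58e-07, edgeR). Its exons share 1793 bases near the end of the gene with Rarb, a retinoic acid receptor gene on the opposite strand. Rarb had 2 and 1 raw counts without genistein and 0 in both libraries with it.

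Both type II genes were then set against each other within a library, a ratio that needs no scaling between libraries. Per kilobase of exon, Top2b stood at 0.221 and 0.219 of Top2a without genistein, and at 0.175 and 0.179 with it. The ratio was lower in both genistein libraries, by 0.32 on the log2 scale, against SDs of 0.01 and 0.02 within the untreated and genistein groups. Single genes had a median absolute log2 fold change of 0.44, the size to set beside this ratio and the 3 others. How many other pairs of genes separate between the groups in this way was not counted. An exact two-sided permutation test of 2 libraries against 2 cannot go below p = 0.333, which was its value, raw and Benjamini-Hochberg adjusted, for each of the 4 ratios computed.

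**Figure D2:**
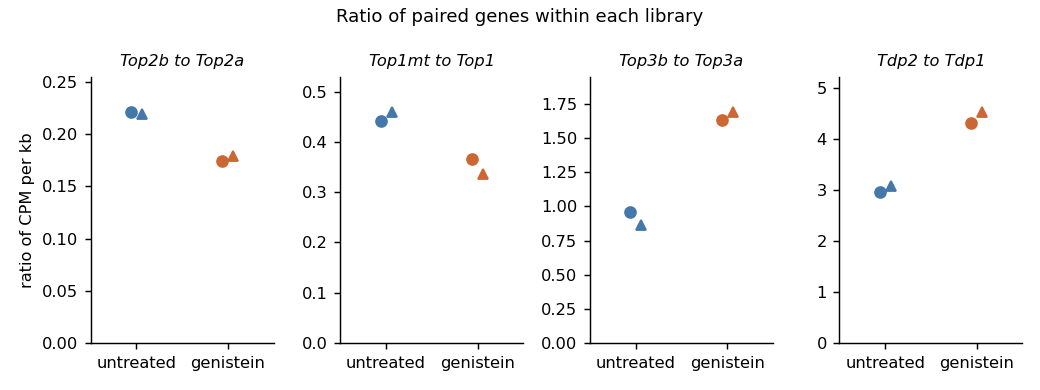
Ratio of the exon-length-scaled levels of paired members within each of the 4 libraries, with circles for replicate 1 and triangles for replicate 2 and every axis from 0. Top2b to Top2a and Top1mt to Top1 were lower in both genistein libraries, Top3b to Top3a and Tdp2 to Tdp1 were higher.

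Topoisomerase I relaxes DNA ahead of and behind RNA polymerases in the nucleus, and TOP1MT, made from a related gene, does so for the circular DNA of mitochondria. Top1 (chromosome 2, 160645888 to 160722764) had 6631 and 6338 normalised read counts without genistein, and 4432 and 4666 with it. Both exposed libraries lay below both untreated ones, and the log2 fold change came to -0.51 ± 0.04 (adjusted p = 1.48e-09, edgeR). Top1mt (chromosome 15, 75657035 to 75678800) fell further, from 574 and 572 to 319 and 308 normalised read counts. Again the groups did not overlap, and the log2 fold change of -0.87 ± 0.07 left 0.547 of the untreated level (adjusted p = 1.44e-08, edgeR). The per-kilobase ratio of Top1mt to Top1 was 0.442 and 0.460 in untreated and 0.367 and 0.337 in genistein libraries, a difference of -0.36 on the log2 scale.

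The type IA enzymes TOP3A and TOP3B pass single strands. TOP3A dissolves linked DNA intermediates of recombination with the BLM helicase and also serves mitochondrial DNA, and TOP3B acts on RNA as well as DNA, together with TDRD3 and FMRP. Top3a (chromosome 11, 60740058 to 60777365) fell from 624 and 644 to 474 and 471 normalised read counts, which as a log2 fold change was -0.42 ± 0.06 (adjusted p = 1.72e-05, edgeR). Top3b (chromosome 16, 16870736 to 16892990) was the member that rose, from 1093 and 1020 to 1418 and 1456, which as a log2 fold change was 0.44 ± 0.05 (adjusted p = 9.63e-07, edgeR). The groups of neither gene overlapped, and 40.7% of all genes had both genistein libraries above both untreated ones, as Top3b did. Within a library the per-kilobase ratio of Top3b to Top3a was 0.958 and 0.867 without genistein, and 1.64 and 1.69 with it. The order of the pair turned round on this scale and not in raw counts, where the ratio was 1.75 and 1.58 without genistein, and 2.99 and 3.09 with it, since Top3b has 8400 bases of merged exon and Top3a 4599. The ratio differed by 0.87 on the log2 scale, the widest of the 4 ratios computed. The start of Top3b shares 108 bases of exon with Vpreb1, a gene of B cell precursors on the opposite strand, which had at most 5 raw counts.

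The phosphodiesterases fell to unequal extents. Tdp1 (chromosome 12, 99884517 to 99955219) had 879 and 896 normalised read counts in untreated and 491 and 449 in genistein libraries, with no overlap. At a log2 fold change of -0.91 ± 0.06 it had the lowest value of the 8 members (adjusted p = 1.61e-09, edgeR), and 8.26% of all tested genes had a lower one. Tdp2 (chromosome 13, 24831679 to 24842153), whose enzyme serves the adducts of the type II topoisomerases, fell from 1068 and 1135 to 871 and 837. Its groups did not overlap either, and the log2 fold change reached -0.37 ± 0.06 (adjusted p = 2.21e-05, edgeR). The per-kilobase ratio of Tdp2 to Tdp1 was 2.95 and 3.08 in untreated and 4.31 and 4.53 in genistein libraries, a difference of 0.55 on the log2 scale.

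Levels were compared between genes as CPM per kilobase of exon. In untreated cells the order was Top2a at 116 ± 1.03 (SD, n = 2 for these values), Top2b at 25.6 ± 0.406, Top1 at 20.8 ± 0.663, Tdp2 at 11.2 ± 0.482, Top1mt at 9.37 ± 0.031, Top3a at 4.61 ± 0.099, Top3b at 4.20 ± 0.206 and Tdp1 at 3.71 ± 0.049. No neighbours in this order overlapped between the libraries of the group, although Top3a and Top3b came close, at no less than 4.54 and no more than 4.35. In genistein-exposed cells Top2a stood at 109 ± 0.297, Top2b at 19.2 ± 0.382, Top1 at 14.6 ± 0.532 and Tdp2 at 8.68 ± 0.245 in the same order, followed by Top3b at 5.71 ± 0.106, Top1mt at 5.12 ± 0.128, Top3a at 3.43 ± 0.020 and Tdp1 at 1.97 ± 0.124. Top3b thus passed Top3a and Top1mt, and again no neighbours overlapped. Summed over the 6 topoisomerases, the level was 182 and 179 CPM per kilobase in untreated and 156 and 158 in genistein libraries. Top2a made up 64.1% and 64.4% of that sum in untreated cells and 69.6% and 69.1% in genistein-exposed cells, while Top2b went from 14.2% and 14.1% to 12.2% and 12.4%. These levels depend on the exon length of the annotation, in which all isoforms of a gene are merged.

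**Figure D3:**
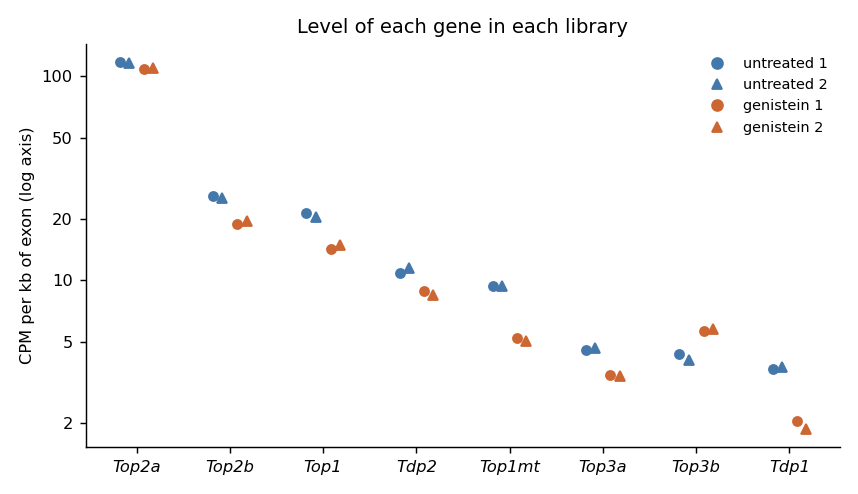
Level of each member in each of the 4 libraries as CPM per kilobase of exon, on a log axis, ordered by the untreated mean, with circles for replicate 1 and triangles for replicate 2. Top2a lies near 116 in untreated and 109 in genistein libraries, the remaining members lie below 26, and Top3b is the member whose genistein points are the upper ones.

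Genes that make the partners and the repair steps of these enzymes were followed in lists. Of 71 tested genes in 6 lists, 46 fell and 11 rose, with a median log2 fold change of -0.25 against -0.03 over all genes and -0.18 over the genes with more than 1000 mean normalised read counts. These counts and those of each list stand against 38.2% lower and 33.5% higher among all tested genes. Among the binding partners of the type IA enzymes, 4 of 5 fell and Rmi1, at 0.07, did not pass. They were led by Rmi2, a subunit of the BLM and TOP3A complex, at -0.55, and Tdrd3, the scaffold that holds TOP3B, at -0.54, with Fmr1, which encodes the RNA-binding partner FMRP, at -0.21 on the log2 scale. Top3b at 0.44 lay above each of the 5, and Top3a at -0.42 lay between them.

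Of 12 genes that repair the single-strand break left by TDP1 or, as nucleases, remove the adduct in its place, 7 fell and 2 rose. Lig3, the DNA ligase of this route, and Parp1, which senses the break, had log2 fold changes of -0.74 and -0.73, and the normalised read counts of Parp1 went from 8501 and 8407 to 5011 and 5149. Parp2, a second sensor, had -0.46. The genes that rose were Aptx, whose enzyme repairs aborted ligations, at 0.46, and Slx4, a scaffold of nucleases, at 0.17. Slx4 missed the threshold with DESeq2 at 0.14 (adjusted p = 0.19), without untreated 1 at 0.11 (adjusted p = 0.16, edgeR) and without genistein 1 at 0.09 (adjusted p = 0.23, edgeR). Tdp1 at -0.91 lay below each of these 12 genes.

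The 12 genes for ends of double-strand breaks, some for joining them and some for a nuclease that can clear blocked ends in place of TDP2, went in both directions, with 6 lower and 3 higher. The subunits Nbn and Mre11a of the nuclease complex that trims blocked ends had log2 fold changes of -1.05 and -0.79. Nbn was the single gene of the lists past the study's thresholds. It had 1352 and 1331 normalised read counts in untreated and 645 and 651 in genistein libraries. With library totals alone Nbn was at -0.98, short of these thresholds. Xrcc6, a subunit of the Ku end-binding protein, fell by 0.71 on the log2 scale. Prkdc, the kinase that Ku recruits, rose from 1185 and 1204 to 1987 and 2098 normalised read counts, a log2 fold change of 0.77, and Dclre1c and Xrcc4, which encode a nuclease and a ligase cofactor of end joining, had 0.67 and 0.37. Xrcc4 missed the threshold with DESeq2 at 0.35 (adjusted p = 0.06). Tdp2 lay above 4 and below 8 of the 12.

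The list with the lowest median, -0.43, was that for digestion and tagging of trapped protein, in which 13 of 18 tested genes fell and 3 rose. Uba2, a subunit of the enzyme that activates SUMO, and Sumo2 itself fell by 0.85 and 0.77, and Vcp, the ATPase that pulls proteins out of chromatin, fell by 0.57 on the log2 scale. The genes that rose were those of the ligases Rnf111, Pias1 and Pias4, at 0.50, 0.50 and 0.33. Sprtn, the protease for proteins joined to DNA, had 0.14 (adjusted p = 0.075, edgeR). Zfp451, the mouse name of the SUMO ligase that works with TDP2, had -0.13 (adjusted p = 0.0024, edgeR).

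Top2a belongs with genes read late in the cell cycle, so 16 of these were set beside it. In this list 9 fell and 3 rose, with a median of -0.18. Cyclin A2 (Ccna2), Aurkb and Plk1, which drive mitotic entry and chromosome attachment, had log2 fold changes of -0.79, -0.70 and -0.56. Nusap1, Cenpf and Hmmr, of the spindle and the kinetochore, had 0.53, 0.22 and 0.21. Top2a at -0.09 lay above 9 and below 7 of these genes. By flow cytometry, the paper reports that this exposure moved the majority of MEF cells into G2/M, the end of the cycle. It also describes Top2a expression as enriched in S and G2, so the groups may differ in cell cycle stage. What part the cell cycle has in the level of Top2a was not tested.

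For Top1mt, 8 genes that copy, bind or read mitochondrial DNA were followed, and 7 fell and Polg2, at 0.25, did not pass. Ssbp1, which coats single strands, had a log2 fold change of -0.74, the helicase gene Twnk had -0.73 and Tfam, which packs the DNA, had -0.64. Top1mt at -0.87 lay below each of the 8. In contrast, the meiotic type II-like enzyme was not made at a testable level: Spo11 had 0 counts in each library and its partner Gm960 too few for the test.

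**Figure D4:**
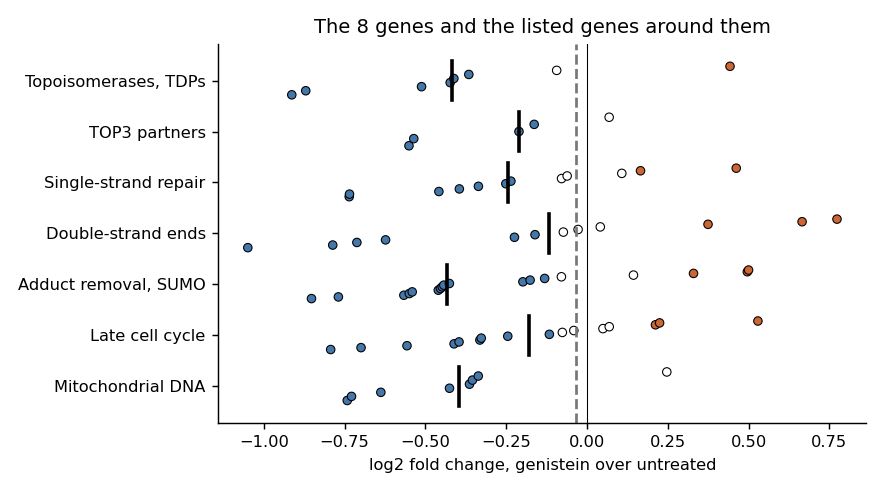
Log2 fold change, genistein over untreated, of the 8 members and of the tested genes of 6 lists, with 1 point per gene, a black bar at each median and a dashed line at the median of all genes. Blue and orange points passed an adjusted p-value of 0.05 and open points did not. Each median is below the dashed line, from -0.43 for adduct removal to -0.12 for the ends of double-strand breaks.

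Top3a, Tdp1 and Tdp2 each start within 1000 bases of another protein-coding gene on the opposite strand, with no exon base in common, and the partner moved the other way in each case. Smcr8, a gene of an autophagy complex, starts 159 bases from Top3a. It rose from 2190 and 2058 to 2993 and 2889 normalised read counts, a log2 fold change of 0.47 ± 0.04 against -0.42 for Top3a (adjusted p = 2.67e-08, edgeR). Efcab11, 78 bases from the start of Tdp1, rose from 88.9 and 83.6 to 156 and 158, a log2 fold change of 0.86 ± 0.13 against -0.91 for Tdp1 (adjusted p = 2.2e-05, edgeR). Acot13, which encodes a thioesterase and starts 139 bases from Tdp2, rose from 182 and 173 to 239 and 237, a log2 fold change of 0.42 ± 0.10 against -0.37 for Tdp2 (adjusted p = 0.0014, edgeR). Acot13 missed the threshold with DESeq2 at 0.40 (adjusted p = 0.064). None of the 3 pairs overlapped between groups in either gene. Most genes did not overlap either: 44.6% of all tested genes had both genistein libraries below both untreated ones and 40.7% had both above. Over the genome, 940 pairs of tested protein-coding genes had such starts. Of these, 227, or 24.1%, were called in opposite directions and 33.2% in the same direction. In the other 401 pairs a gene was without a call, whereas both genes were called in each of the 3 pairs here. The pairs of the genome were counted after the values of these 3 were seen.

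**Figure D5:**
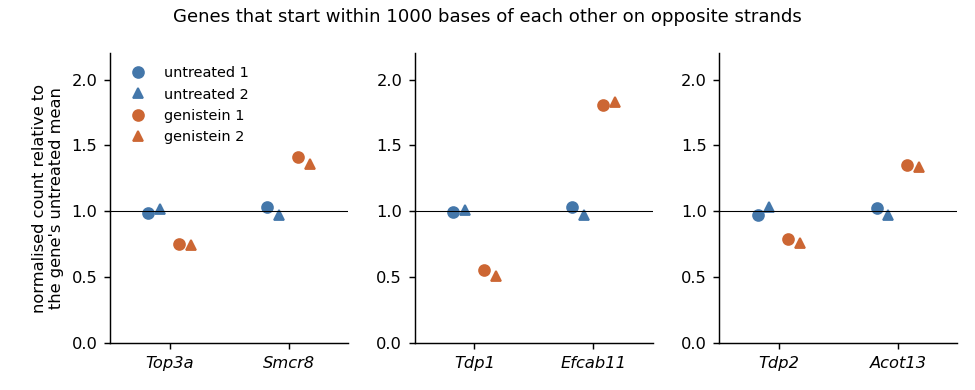
Normalised read count of each gene relative to its own untreated mean in the 4 libraries, for the 3 pairs of genes that start within 1000 bases of each other on opposite strands. In each panel the genistein points of the member lie below 1 and those of its partner above 1.

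The genes most like Top1, Top2a and Top2b over the 4 libraries were found by the distance between log2 CPM values centred on each gene's mean, among 8848 genes with a mean of at least 10 CPM. For Top1 they were Anxa1, Zdhhc6 and Tubg1, at distances of 0.011 to 0.014 against a median of 0.468. For Top2a they were Paics, Timm29 and Med23, at 0.0057 to 0.0092 against 0.354, and for Top2b they were Ppp2r2d, Slc7a6 and Gtpbp10, at 0.0088 to 0.012 against 0.413. With 4 libraries in 2 groups, such likeness is close to an equal log2 fold change and describes little more than that.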

How the data were processed

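Ribosomal RNA was depleted and paired ends were sequenced. The authors used Trim Galore for trimming, STAR for alignment to mm10 (GRCm38), where multi-mapping reads were kept, and TEtranscripts for counting over GENCODE M9 genes and RepeatMasker repeats. The deposited values are raw counts, not normalised. The libraries were stranded, and the counter's strand option is not given in the sources used here, so reads of overlapping opposite genes may not be separated.

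Symbols, coordinates and merged exon lengths came from GENCODE M21 on GRCm38, counted from 1, a later release than that used for counting. Of 49383 entries, 1 named no gene or repeat (0.00208% to 0.00314% of a library) and was left out. edgeR 4.0.16 in R 4.3.3 kept 17358 genes and repeats (filterByExpr by group), scaled them with TMM factors and compared groups with the quasi-likelihood test and Benjamini-Hochberg adjustment over all kept entries. A standard error is the log2 fold change divided by the square root of F, and intervals are 95%. Libraries of a group differed beyond sampling noise, with chi-square values of 5.483 (untreated) and 12.13 (genistein) per degree of freedom, and were counted as separate replicates. The test was checked on simulated counts.

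Named were all 8 members, up to 3 genes per list and direction with the largest called changes, the 3 genes most alike Top1, Top2a and Top2b (log2 CPM with 0.5 added), and genes that overlap a member or start within 1000 bases of it. Rmi1, Polg2, Sprtn and Zfp451 were named outside this rule after their values were seen. The motifs were also chosen then. The lists came from general knowledge, and 1 of their 74 entries was not matched. Members and lists were chosen with earlier results of these data known. Alternatives covered scaling, filters, genes fitted alone, DESeq2 1.42.0, the replicate number as a block and the removal of each library in turn.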

Additional observations from a re-analysis of the deposited data

How the results depend on the processing

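Among the 12 alternatives, 7 of the 8 members kept their direction and their side of the threshold. Their log2 fold changes ranged from -0.98 to -0.84 for Tdp1, from -0.90 to -0.80 for Top1mt, from -0.55 to -0.44 for Top1, from -0.45 to -0.35 for Top3a, from -0.44 to -0.34 for Top2b, from -0.41 to -0.30 for Tdp2 and from 0.39 to 0.51 for Top3b. Top2a ranged from -0.12 to -0.02 and passed only with DESeq2 and with no filter. With library totals alone it was at -0.02 (adjusted p = 0.71, edgeR), and the cause was not tested. In the fits on all 4 libraries, the numbers of members that fell or rose stayed within 1.5 times their values. In these fits 0 members passed the study's thresholds. Listed genes that fell numbered 43 to 47, with 46 in the main fit. Those that rose numbered 11 in the main fit and 9 with DESeq2. They numbered 16 with TMM factors from genes alone, genes fitted alone, library totals, or a filter of 50 counts in 2 libraries. The shares over all genes moved with the scaling. TMM factors from genes alone gave 5815 genes lower and 5867 higher, genes fitted alone 5830 and 5888, and library totals 5532 and 6083. More genes fell than rose in the main fit, with 6210 and 5436, and in the other fits on all 4 libraries. With the replicate block Top2a was at -0.09 (adjusted p = 0.18, edgeR), and the block changed no member's call. Deviations of libraries with the same number had a correlation of -0.071 across 2 pairs, which does not show that a shared number pairs libraries. The within-library ratios lay from -0.34 to -0.30 for Top2b to Top2a, from -0.42 to -0.30 for Top1mt to Top1, from 0.80 to 0.94 for Top3b to Top3a and from 0.51 to 0.59 for Tdp2 to Tdp1 when each library was left out. Paics and Med23, with changes as small as that of Top2a, lost their calls under 9 alternatives each. Gm23451, a small nucleolar RNA gene inside Top2a with 22 to 27 raw counts, was at 0.04 without a call (adjusted p = 0.91, edgeR) and ranged from -0.12 (without untreated 1) to 0.20 (without untreated 2) when each library was left out, with -0.07 without genistein 2.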
